A study of Oryctolagus cuniculus with 6 samples.

Results

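Rod photoreceptors turn light into an electrical signal through the phototransduction cascade, and 9 of its genes were followed here in rabbit retinas with and without proliferative vitreoretinopathy (PVR), a scarring disease of the retina and vitreous. The genes were chosen by symbol: GNAT1, GNB1, PDE6A, PDE6B, PDE6G, CNGA1, CNGB1, SAG and RCVRN. The tables hold 28788 genes, and 7 of the 9 were found there under their symbol. PDE6B and PDE6G were found through their RefSeq gene identifiers, as the rows LOC100342100 and LOC127485387. All 9 passed the filter on low counts, which left 18697 genes for testing.

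Polyadenylated RNA was sequenced from 3 retina samples of normal rabbits and 3 retina samples of rabbits with PVR. According to the study's methods, adult rabbits were used, and the PVR eyes received a scleral puncture, removal of some vitreous body and an injection of platelet-rich plasma into the vitreous cavity. The strain, the sex, the time between injection and collection and any sham procedure in the normal eyes are not given in the sources used here. Whether the 3 samples of a group came from separate animals is not stated either. The p-values therefore set each difference against the spread between these samples, which may be partly technical. The comparison of PVR with normal retina asks how the steady-state RNA of each gene differs between the conditions. In whole retina, fewer rods and less RNA per rod cannot be told apart.

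In the cascade, light absorbed in the rod outer segment leads to activation of the G protein transducin, whose alpha subunit then activates a phosphodiesterase. The phosphodiesterase breaks down cyclic GMP, and the cation channel that cyclic GMP holds open in the outer segment closes. Arrestin and recoverin act on the shutoff side, arrestin by capping the phosphorylated receptor and recoverin by restraining the receptor kinase in a calcium-dependent way. Rods make up most photoreceptors in the mammalian retina, and these transcripts are among the abundant ones in this tissue.

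Total counts per sample were between 31904593 and 43035080, and each of the 9 genes had between 19511 and 154795 counts. NRL, NR2E3, ROM1, PRPH2 and PDC, which mark the photoreceptors of the labelled tissue, had counts in all 6 samples. PRPH2, however, was at 35.8 CPM (counts scaled to the depth of the sample) in normal replicate 3, against 579 and 517 CPM in the other normal samples. Normal replicate 2 stood apart by its lens transcripts: 8 lens genes took 3.12% of its counts, at most 0.00152% in the other normal samples and at most 0.0308% in the PVR samples. Over 7 oligodendrocyte genes, the summed level was 246, 579 and 1188 CPM in normal, highest in normal replicate 3, and 134 to 153 CPM in PVR. All 7 had a lower fitted level in PVR, against 51.1% of all genes tested. Past an adjusted p of 0.05, the number of these 7 called lower was 3 with edgeR, 1 with limma-voom and 6 with DESeq2, against 0.615%, 0.396% and 3.33% of all genes tested. Over 7 pigment epithelium genes the sum ranged from 138 to 351 CPM in normal and from 80.8 to 89.9 CPM in PVR. Of the 6 tested, edgeR called 2 lower (LRAT and TTR), limma-voom 0 and DESeq2 3, against the same 0.615%, 0.396% and 3.33% of all genes. At an unadjusted p under 0.05, edgeR and limma-voom each found 3 of those 6 lower, against 9.94% and 9.38% of all genes. DESeq2 found 4 lower over the whole list of 7, against 7.85% of all genes. All 3 tools found 1 higher, BEST1, with a log2 fold change of 0.53, against 11.3%, 10.8% and 9.79% of all genes. The Mueller glia genes were split. Of 6, edgeR, limma-voom and DESeq2 each called RLBP1 (-0.89) and GLUL (-1.11) lower, against 0.615%, 0.396% and 3.33% of all genes. By contrast GFAP, an intermediate filament of reactive glia, had 1.39, with an edgeR adjusted p of 0.143 (0.0148 unadjusted). The median of the 6 was -0.098. The 7 microglia and macrophage genes summed to 27.1 to 65.6 CPM in normal and 68.9 to 98.6 CPM in PVR. All 7 had a higher fitted level in PVR, whereas 51.1% of all genes tested had a lower one. Past an adjusted p of 0.05, 0 of these 7 were called with edgeR or limma-voom and 2 (PTPRC and CD68) with DESeq2, which called 5.43% of all genes higher. At an unadjusted p under 0.05, 3 of the 7 were higher with edgeR, 5 with limma-voom and 5 with DESeq2, against 11.3%, 10.8% and 9.79% of all genes. The 3 blood genes summed to 29.0 to 34.0 CPM in normal and 12.6 to 21.7 CPM in PVR. Of these 3, edgeR and limma-voom each called 0 lower and DESeq2 1, HBA, against 0.615%, 0.396% and 3.33% of all genes. At an unadjusted p under 0.05, edgeR and limma-voom each found 1 lower and DESeq2 2, against 9.94%, 9.38% and 7.85% of all genes. The neuronal lists had median log2 fold changes of -0.0096 over 7 bipolar genes, -0.050 over 8 amacrine and horizontal cell genes and -0.21 over 8 ganglion cell genes. The marker genes singled out here were named after their values were seen, and the part of these cell types in the rod gene values was not tested.

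All 9 rod genes had a lower mean in PVR, by 6.49% for SAG to 31.6% for PDE6G, and none of the differences passed the threshold on adjusted p. The fitted log2 fold changes ran from -0.55 to -0.097 with a median of -0.29, whereas the median over all genes tested was -0.0088 and 51.1% of all genes tested had a fitted change below 0. The quasi-likelihood p-values of edgeR, after Benjamini-Hochberg adjustment over the 18697 genes, lay between 0.128 and 0.685. At an unadjusted p under 0.05, 4 of the 9 were lower in PVR (PDE6A, PDE6B, PDE6G and RCVRN), a share to be read against 9.94% of all genes tested. Past an adjusted p of 0.05, edgeR called 0 of the 9 against 1.7% of all genes tested, and past the study's added threshold of a log2 fold change beyond 1 it called 0 against 1.01%. limma-voom also called 0 of the 9, against 1.15% of all genes tested, whereas DESeq2, the tool named in the study's methods, called PDE6G alone, lower in PVR, against 3.33% of all genes called lower by that tool. Unadjusted p-values under 0.05 were found for 6 of the 9 with DESeq2 and for 5 with limma-voom, all in genes lower in PVR, against 7.85% and 9.38% of all genes tested. DESeq2 was run without the low-count filter used for edgeR and limma-voom. Its shares, here and for the other lists, are therefore over 24852 genes for unadjusted p and 20052 genes for adjusted p, and are not directly comparable with those of the other tools. None of the 9 approximate 95% intervals reached a log2 fold change of -1, the lowest bound being -0.93 for PDE6G. Without normal replicate 2, the sample with lens transcripts, the 9 log2 fold changes ran from -0.61 for PDE6G to -0.14 for CNGB1 with a median of -0.34, and edgeR again called 0 of them, with adjusted p-values from 0.196 to 0.63. Without normal replicate 3, which was lowest in PRPH2 and highest in the oligodendrocyte genes, they ran from -0.55 for PDE6G to 0.046 for SAG with a median of -0.28, and edgeR called 0 of them, with adjusted p-values from 0.0918 to 0.828.

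**Figure D1:**
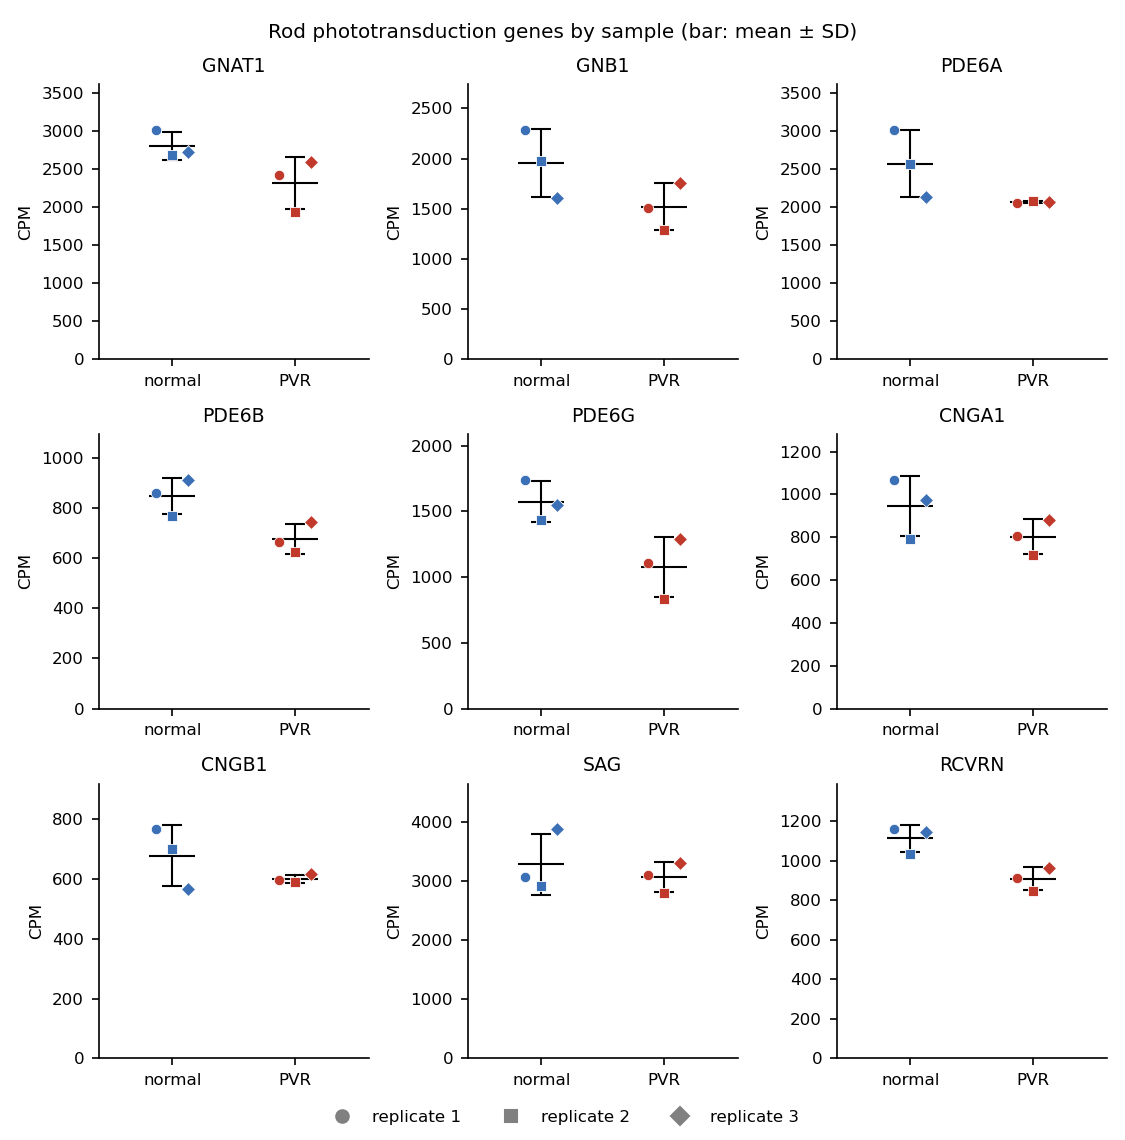
Level of each rod phototransduction gene in CPM (counts scaled to TMM-corrected depth) in the 3 normal samples (blue) and the 3 PVR samples (red), with symbols for replicates 1 to 3 and bars for mean ± SD (n = 3). All 9 means are lower in PVR, and 5 of the 9 genes have every PVR sample below every normal sample, against 14.6% of all genes tested.

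The plot of levels by sample gives these values in CPM, scaled with the TMM factors that correct for differences in RNA composition. On this scale 5 of the 9 genes (GNAT1, PDE6A, PDE6B, PDE6G and RCVRN) had all PVR samples below all normal samples, against 14.6% of all genes tested. On the FPKM scale, which divides by the total count of a sample and by gene length, 2 of the 9 (PDE6G and RCVRN) did so, against 9.69% of all genes tested. In FPKM the normal sample within the PVR range was replicate 2 for GNAT1 and PDE6B, but replicate 3 for PDE6A. The total of normal replicate 2 includes its lens transcripts, 3.12% of its counts, and their part in this difference between the scales was not tested. The full order of the 6 samples was shared by 3 of the 9 genes, GNAT1, PDE6G and RCVRN, and each of the other 6 had an order of its own. Normal replicate 1 had the highest CPM of all 6 samples in 7 of the 9 genes, and normal replicate 3 in the other 2, PDE6B and SAG. PVR replicate 2 had the lowest CPM of all 6 samples in 7 of the 9 genes, the exceptions being PDE6A, lowest in PVR replicate 1, and CNGB1, lowest in normal replicate 3. Within PVR, replicate 3 was the highest in 8 of the 9 genes. The summed level of the 9 genes was 16951, 14863 and 15473 CPM in normal and 13162, 11717 and 14223 CPM in PVR, which is 15763 ± 1074 against 13034 ± 1258 (SD, n = 3). Every PVR sum was below every normal sum, and the mean was 17.3% lower. As a share of all counted reads, without TMM scaling, the 9 genes took 1.66%, 1.42% and 1.54% in normal and 1.35%, 1.22% and 1.43% in PVR. Here PVR replicate 3 lay above normal replicate 2. The counted reads of normal replicate 2 again include its lens transcripts, and their part in this overlap was not tested.

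Transducin carries the signal to the phosphodiesterase. GNAT1, the rod transducin alpha subunit, had 3011, 2680 and 2721 CPM in normal and 2415, 1933 and 2597 CPM in PVR. The groups did not overlap, but the highest PVR sample, replicate 3, was close to the lowest normal sample. The log2 fold change of GNAT1 was -0.28 (standard error 0.12, 95% interval -0.56 to 0.0092), with an edgeR adjusted p of 0.247, and it was -0.16 without PVR replicate 2. GNB1, the beta subunit that transducin shares with G proteins of many other cell types, had 2282, 1973 and 1606 CPM in normal and 1510, 1289 and 1757 CPM in PVR. Here PVR replicate 3 lay above normal replicate 3, so the groups overlapped. GNB1 gave a log2 fold change of -0.36 (standard error 0.16, 95% interval -0.74 to 0.011), with an edgeR adjusted p of 0.246, and -0.23 without normal replicate 1. Since GNB1 is not restricted to rods, its whole-retina level includes other cells.

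The rod phosphodiesterase consists of the catalytic subunits PDE6A and PDE6B and the small inhibitory subunit PDE6G, which transducin displaces. PDE6G showed the lowest ratio of PVR to normal among the 9 genes. Its level was 1741, 1436 and 1551 CPM in normal and 1108, 835 and 1291 CPM in PVR. All PVR samples were below all normal samples, and PVR replicate 2 was the lowest sample. The means were 1576 ± 154 CPM (SD, n = 3) and 1078 ± 230 CPM (SD, n = 3). PDE6G gave a log2 fold change of -0.55 (standard error 0.16, 95% interval -0.93 to -0.16), with an adjusted p of 0.128 in edgeR (0.0113 unadjusted). With DESeq2 the log2 fold change was the same within rounding, -0.55, and the adjusted p was 0.0130. Leaving out single samples, the log2 fold change of PDE6G ranged from -0.70 without PVR replicate 3 to -0.39 without PVR replicate 2, and the edgeR adjusted p from 0.0672 to 0.363.

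PDE6A had 3006, 2561 and 2128 CPM in normal and 2048, 2082 and 2064 CPM in PVR. The coefficient of variation was 0.806% in PVR and 17.1% in normal, and normal replicate 3 stood just above the PVR range. The log2 fold change of PDE6A was -0.31 (standard error 0.13, 95% interval -0.61 to -0.017), and its edgeR adjusted p was 0.217. Without normal replicate 1 it was -0.18, with an edgeR adjusted p of 0.450 (0.146 unadjusted). PDE6B, the other catalytic subunit, had 859, 769 and 912 CPM in normal and 665, 624 and 743 CPM in PVR. Its groups did not overlap, and its normal replicate 3 was the highest sample, whereas it was the lowest normal sample for PDE6A. The log2 fold change of PDE6B was -0.32 (standard error 0.11, 95% interval -0.57 to -0.073), with an edgeR adjusted p of 0.156.

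The cyclic GMP-gated channel of the rod outer segment is built from CNGA1, the pore-forming subunit, and CNGB1, the modulatory subunit. CNGA1 had 1068, 794 and 975 CPM in normal and 806, 718 and 882 CPM in PVR. PVR replicates 1 and 3 lay above normal replicate 2, so the groups overlapped. The log2 fold change of CNGA1 was -0.24 (standard error 0.13, 95% interval -0.55 to 0.076), with an edgeR adjusted p of 0.344, and it was -0.14 without normal replicate 1. CNGB1 had 767, 703 and 566 CPM in normal and 597, 590 and 617 CPM in PVR. The PVR samples were close together, with a coefficient of variation of 2.34% against 15.1% in normal, and all of them were above normal replicate 3. CNGB1 gave a log2 fold change of -0.17 (standard error 0.12, 95% interval -0.46 to 0.11), with an edgeR adjusted p of 0.438. Leaving out normal replicate 1 gave -0.072 and leaving out normal replicate 3 gave -0.28. The CNGB1 locus also gives rise to shorter glutamic acid-rich proteins of the rod, and counts per gene do not separate them.

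SAG, the rod arrestin, had the smallest difference of the 9 genes. Its level was 3060, 2912 and 3873 CPM in normal and 3098, 2800 and 3308 CPM in PVR. The groups overlapped, with PVR replicates 1 and 3 above normal replicates 1 and 2. The log2 fold change of SAG was -0.097 (standard error 0.13, 95% interval -0.39 to 0.20), with an edgeR adjusted p of 0.685, and it was 0.046 without normal replicate 3, -0.035 without PVR replicate 2, -0.17 without normal replicate 2 and -0.16 without PVR replicate 3. RCVRN, which encodes the calcium sensor recoverin of rods, cones and some bipolar cells, had 1157, 1035 and 1142 CPM in normal and 914, 846 and 965 CPM in PVR. Its groups did not overlap, and it was the least variable of the 9 genes among the normal samples, with a coefficient of variation of 5.99%. RCVRN gave a log2 fold change of -0.29 (standard error 0.093, 95% interval -0.51 to -0.075), with an adjusted p of 0.144 in edgeR (0.0150 unadjusted). Whether the difference of PDE6G and that of SAG are themselves different was not tested.

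**Figure D2:**
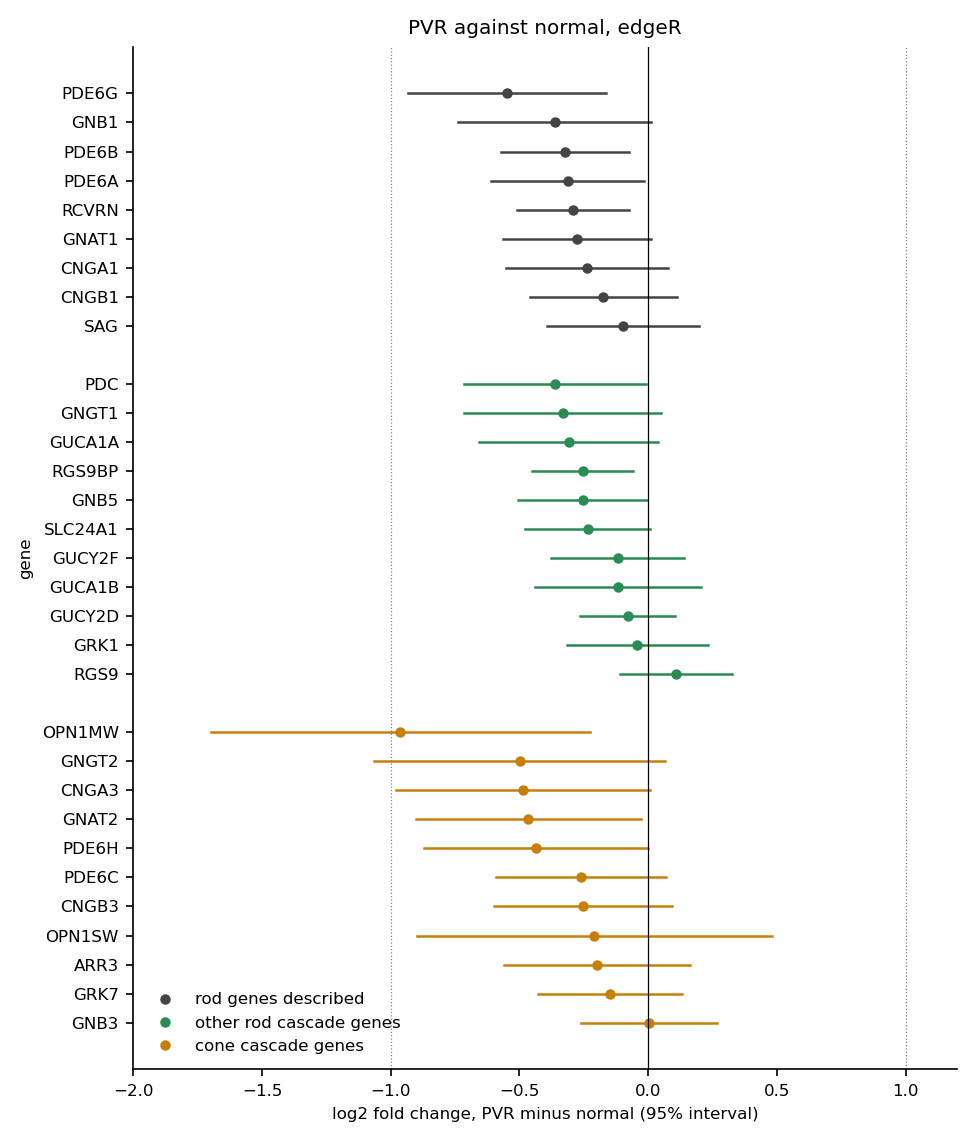
Log2 fold change (PVR minus normal, edgeR) with its approximate 95% interval for the 9 rod genes, 11 other rod cascade genes and 11 cone cascade genes. Dotted lines mark log2 fold changes of -1 and 1. A point estimate below 0 is found for 19 of the 20 rod genes and 10 of the 11 cone genes, against 51.1% of all genes tested.

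The other rod cascade genes lay mostly on the same side. Of 11 such genes described here, 10 had a lower fitted level in PVR, with a median log2 fold change of -0.24, and edgeR, DESeq2 and limma-voom each called 0 of the 11 past an adjusted p of 0.05. At an unadjusted p under 0.05, edgeR found 3 of the 11 lower (RGS9BP, GNB5 and PDC), DESeq2 6 and limma-voom 4, against 9.94%, 7.85% and 9.38% of all genes tested, of which 51.1% had a fitted change below 0 in edgeR. GNGT1, the gamma subunit of rod transducin, had a log2 fold change of -0.33 (edgeR adjusted p = 0.288), and PDC, which encodes phosducin, a binding partner of transducin beta and gamma, had -0.36 (edgeR adjusted p = 0.227).

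The values of the shutoff and recovery genes were between -0.31 and 0.11. GRK1, the receptor kinase that recoverin restrains, had a log2 fold change of -0.042 (edgeR adjusted p = 0.857). RGS9, which speeds the GTP hydrolysis of transducin alpha, was the single gene of the 11 with a higher fitted level in PVR. It had 1393, 1274 and 1499 CPM in normal and 1542, 1527 and 1422 CPM in PVR, a log2 fold change of 0.11 (edgeR adjusted p = 0.525), and its groups overlapped. Its partners RGS9BP, the membrane anchor, and GNB5 had -0.25 each, with edgeR adjusted p-values of 0.153 and 0.232. The guanylate cyclases GUCY2D and GUCY2F, which restore cyclic GMP, had -0.079 and -0.12, and their calcium-sensing activators GUCA1A and GUCA1B had -0.31 and -0.12. SLC24A1, the sodium, calcium and potassium exchanger of the rod outer segment, had -0.24. The edgeR adjusted p-values of these 5 genes lay between 0.246 and 0.649.

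The cone counterparts had fitted differences of a similar size. Of 12 cone genes listed, 11 were found (OPN1LW was not matched). Of these 11, 10 had a lower fitted level in PVR, against 51.1% of all genes tested, and the median log2 fold change was -0.26. edgeR called 0 of the 11 past an adjusted p of 0.05, as did DESeq2 and limma-voom. At an unadjusted p under 0.05, edgeR found 3 of the 11 lower, DESeq2 5 and limma-voom 2, against 9.94%, 7.85% and 9.38% of all genes tested. In CPM, all PVR samples lay below all normal samples for 1 of the 11 cone genes and 4 of the 11 other rod cascade genes, against 14.6% of all genes tested. The lowest log2 fold change of the cone genes was that of OPN1MW, a cone opsin, at -0.96 (standard error 0.32, edgeR adjusted p = 0.152). Its level was 279, 243 and 410 CPM in normal and 156, 96.9 and 225 CPM in PVR. GNAT2, the cone transducin alpha subunit, had -0.47 where its rod counterpart GNAT1 had -0.28, and PDE6H, the cone inhibitory subunit, had -0.44 where PDE6G had -0.55. ARR3, the cone arrestin, had -0.20 where SAG had -0.097. The intervals of each of these pairs overlap, and the differences between rod and cone genes were not tested.

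**Figure D3:**
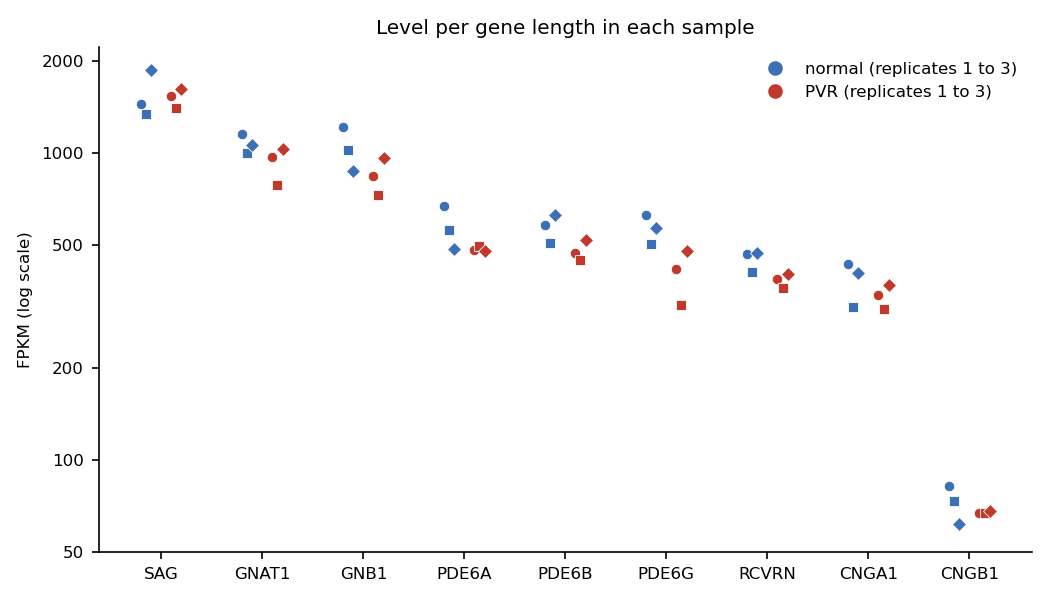
FPKM (counts scaled to gene length and to the total count of the sample, log axis) of the 9 rod genes in each normal (blue) and PVR (red) sample, with circles, squares and diamonds for replicates 1, 2 and 3. SAG is the highest and CNGB1 the lowest gene in all 6 samples.

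Levels of different genes can be compared only per length, on the FPKM scale. In the normal samples SAG was the highest with 1552 ± 279 FPKM (SD, n = 3), followed by GNAT1 with 1074 ± 76.7 and GNB1 with 1036 ± 171. The phosphodiesterase subunits came next, PDE6A with 574 ± 94.2, PDE6B with 573 ± 61.7 and PDE6G with 569 ± 61.7 FPKM (SD, n = 3). RCVRN had 450 ± 35.7, CNGA1 385 ± 62.4 and CNGB1 72.4 ± 10.2 FPKM (SD, n = 3). Ranges over the normal samples overlapped for the neighbours GNAT1 and GNB1, PDE6A and PDE6B, PDE6B and PDE6G, and RCVRN and CNGA1, and did not overlap for the other 4 neighbouring pairs. In PVR the means were 1519 ± 105 for SAG, 930 ± 126 for GNAT1, 845 ± 118 for GNB1, 486 ± 9.50 for PDE6A, 480 ± 35.7 for PDE6B and 407 ± 81.3 FPKM for PDE6G (SD, n = 3). For RCVRN the PVR mean was 385 ± 19.8, for CNGA1 342 ± 30.2 and for CNGB1 67.5 ± 0.670 FPKM (SD, n = 3). The order of the means was thus the same in PVR, although the ranges of PDE6G and RCVRN then overlapped as well. The lengths behind these values, recovered as the count divided by FPKM and depth, were 4352 bases for PDE6A but 1443 bases for PDE6B, whose proteins are of similar size. They were 2705 bases for PDE6G and 9129 bases for CNGB1. The near-equal FPKM of PDE6A, PDE6B and PDE6G therefore depends on these gene models, whereas comparisons of the same gene between samples do not.

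**Figure D4:**
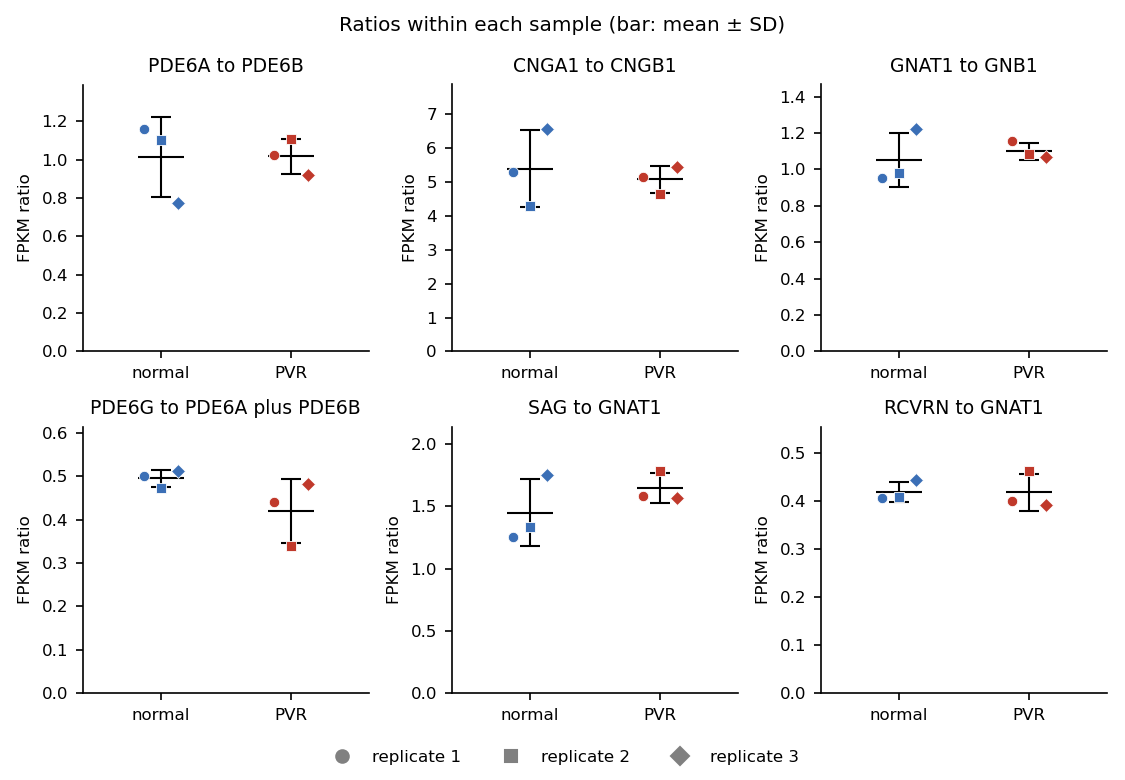
Ratio of FPKM values within each sample for 6 pairs or groups of rod genes, in normal (blue) and PVR (red) samples, with bars for mean ± SD (n = 3). The normal and PVR ranges overlap for all 6 ratios, and the lowest PDE6G ratio, 0.339, is that of PVR replicate 2.

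Ratios within a sample do not depend on the depth or the scaling of that sample, but their size depends on the gene lengths used. The ratio of PDE6A to PDE6B was 1.01 ± 0.208 in normal and 1.02 ± 0.0922 in PVR (SD, n = 3), with normal replicate 3 the lowest sample at 0.774. For the channel, CNGA1 to CNGB1 was 5.39 ± 1.13 in normal and 5.07 ± 0.411 in PVR (SD, n = 3). GNAT1 to GNB1 was 1.05 ± 0.148 and 1.10 ± 0.0466 (SD, n = 3), and RCVRN to GNAT1 was 0.419 ± 0.0211 and 0.418 ± 0.0385 (SD, n = 3). The ratio of the inhibitory subunit PDE6G to the sum of PDE6A and PDE6B was 0.500, 0.473 and 0.512 in normal and 0.440, 0.339 and 0.483 in PVR. PVR replicates 1 and 2 were below all normal samples and PVR replicate 3 lay between normal replicates 1 and 2. SAG to GNAT1 was 1.25, 1.34 and 1.75 in normal and 1.58, 1.78 and 1.57 in PVR. Here normal replicate 3 was apart from the other normal samples and within the PVR range. For all 6 ratios the groups overlapped.

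The likeness of other genes to the rod genes was ranked by Pearson's r over the 6 samples between a gene's log2 CPM and the mean log2 CPM of the 9 genes. The candidates were 9509 genes with a symbol and a mean log2 CPM of at least 3. The 5 most alike were MTMR9, KIFBP, SGCD, PURB and PHF20, with r from 0.995 to 0.998, and all 5 had a negative log2 fold change, between -0.69 for SGCD and -0.19 for PHF20, with edgeR adjusted p-values from 0.139 to 0.227. Among the 11 other rod cascade genes SLC24A1 (r = 0.963), PDC (r = 0.955) and GNGT1 (r = 0.929) followed the 9 genes most closely, and RGS9 had r = -0.55. High values were not limited to rod genes: among the 11 cone genes r ran from -0.085 for GNB3 to 0.889 for GNAT2. The points are the same 6 libraries, with condition and scaling in common, and with so many candidates a high r in 6 points is a description only.

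**Figure D5:**
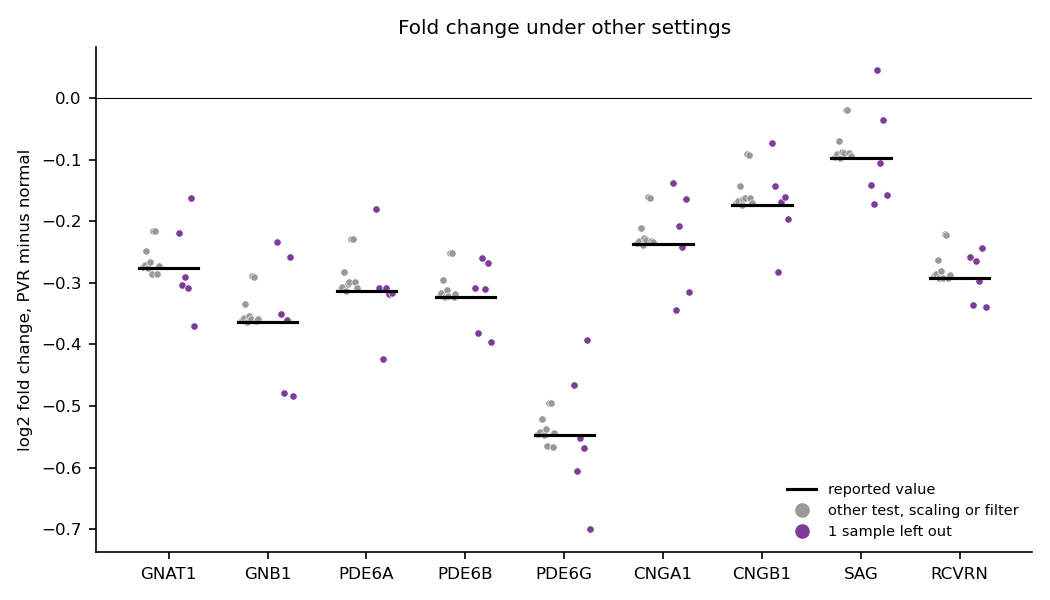
Log2 fold change (PVR minus normal) of each of the 9 rod genes as reported (black line), under other tests, scalings and filters (grey) and with 1 sample left out (purple). All points are below 0 apart from SAG without normal replicate 3, at 0.046.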

How the data were processed

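Retinal RNA of 3 normal and 3 PVR rabbit samples was compared, grouped by the sample labels. The authors used HISAT2 for alignment to OryCun2.0 and htseq-count for counting, and fastp is also listed in their processing notes. The authors deposited a raw count per gene and sample, and a table of FPKM values. Annotation release and strand setting are not given in the sources used here. Dividing counts by the deposited FPKM gave a single length per gene (largest relative difference 4.24e-09), so both tables hold the same reads.

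The tests were run under R 4.3.3, using edgeR 4.0.16 (default filter, TMM, quasi-likelihood test, condition as the single term), limma 3.58.1 and DESeq2 1.42.0, with Benjamini-Hochberg adjustment over all genes tested. Calls required an adjusted p under 0.05, and a second rule added an absolute log2 fold change over 1. A standard error is the log2 fold change divided by the square root of F, and the approximate 95% interval uses it with edgeR's degrees of freedom. Intervals assume the spread between samples. CPM uses TMM-scaled depth, and log2 CPM a prior count of 2. Named genes are the 9 genes, the rod and cone cascade lists and the 5 genes most alike. PDE6B, PDE6G and some markers were matched through RefSeq's table of mOryCun1.1, used for names only, so no positions are given. A gene of the rod cascade and rod marker lists is not reported here and is left out of their counts. Members and lists were chosen with earlier results of these data known. Tests were checked on simulated counts. Alternatives were other tests, factors, filters and units, a replicate block and leaving out each sample. Python 3.11.15, pandas 2.3.3 and matplotlib 3.10.9 made tables and figures.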

Additional observations from a re-analysis of the deposited data

How the results depend on the processing

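The log2 fold changes of the 9 rod genes were recomputed under 16 other settings, and 143 of the 144 values were below 0. The exception was SAG, at 0.046 without normal replicate 3, and with single samples left out SAG ranged from -0.17 to 0.046. The number of rod genes past an adjusted p of 0.05 was 0 with edgeR and limma under all settings and 1, PDE6G, with DESeq2, and of the 11 other rod cascade genes 0 were called under the 15 settings tried for them. DESeq2 called 1755 genes in all where edgeR called 318, and the cause was not tested. Leaving out single samples, done with edgeR alone, gave 0 rod genes throughout, and the median log2 fold change of the 9 then lay between -0.34 and -0.22. Whether the DESeq2 call of PDE6G holds without single samples was not tested. Adjusted p-values without PVR replicate 1 are from a fit in which 22 genes in all were called, and without PVR replicate 3 from one in which 650 were called. With the 8 lens genes taken out before scaling, chosen after seeing the data, the median was -0.29, and over the 7 genes found by symbol it was -0.28. With the replicate number as a block the median was -0.29 and 0 rod genes were called. The numbers are not known to pair the samples: same-numbered samples had correlations of their deviations from the group mean of -0.0129, 0.0734 and 0.0417, and the block moved the number of genes called from 318 to 92. The lowest count of these genes in any sample was 19511, and no setting lowered or matched the depth of the samples.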

Other observations

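PRPH2, which encodes peripherin, a structural protein of the photoreceptor disc rim, was not alike among the normal samples. It had 579 and 517 CPM in normal replicates 1 and 2 and 35.8 CPM in normal replicate 3, against 220, 188 and 248 CPM in the PVR samples, whereas ROM1, its partner in the disc rim, had no such gap. PRPH2 was named after its values were seen, as a member of the rod identity list. NR2E3, a rod transcription factor on the same list, had a higher fitted level in PVR by 0.23 on the log2 scale (edgeR adjusted p = 0.301), and NRL, the transcription factor that specifies rods, had -0.38 (edgeR adjusted p = 0.187).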
